A study of Mus musculus with 15 samples.

Results

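Collagens are the trimeric proteins that form most of the heart's extracellular matrix, and the genes of their chains were measured in mouse ventricles in which the RNA-binding protein Celf1 was induced. The collagen genes were chosen by symbol, as every gene of the deposited table whose name is Col, a number, the letter a and a number, which gave 37 of 16042 genes. They divide into 11 fibrillar collagens, 6 basement membrane collagens of type IV and 20 other collagens. A mean level of at least 1 RPKM over the 15 mice was required for testing, and 20 collagen genes met it, of which 8 are fibrillar, 4 basement membrane and 8 other. RPKM is the number of reads per kilobase of gene model and relative to all mapped reads, so it allows levels of different genes to be set side by side.

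Induced mice carried 2 transgenes, MHCrtTA and TRECUGBP1. The first drives the doxycycline-dependent activator rtTA from the alpha-myosin heavy chain promoter, which is active in heart muscle cells, and the second holds Flag-tagged human Celf1 (the LYLQ isoform) behind a tetracycline-responsive promoter. These mice ate food with 2 g/kg doxycycline for 12 hours, 24 hours, 72 hours or 7 days. Control mice carried MHCrtTA alone and ate the same food for 72 hours, so only the 72 hour group is matched to them in time on doxycycline. At the other times the length of doxycycline feeding and the transgene cannot be told apart. Each group held 3 mice aged 20 to 22 weeks, all groups were without food for 2 to 3 hours before doxycycline food was given, and polyadenylated RNA came from ventricles without atria and without part of the apex. The Celf1 level (listed as Cugbp1) averaged 305 ± 74.2 RPKM at 12 hours, 378 ± 71.6 RPKM at 24 hours, 173 ± 12.1 RPKM at 72 hours and 32.8 ± 4.50 RPKM at 7 days, against 34.4 ± 1.48 RPKM in controls (SD, n = 3 each). At 7 days the Celf1 level was close to that of controls, with a log2 difference of -0.07 ± 0.20 (SE) and an adjusted p of 0.771 in limma.

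Fibrillar collagens of types I and III make the stiff and the pliable fibres between heart muscle cells and are produced mainly by fibroblasts. Types V and XI are minor chains that sit inside those fibres and govern how they start and how thick they grow. Type IV chains form the sheet-like basement membrane around muscle cells and capillaries. Type VI forms beaded filaments next to that membrane, types XII, XIV and XVI decorate the surface of fibres, and types XV and XVIII link the basement membrane to the fibres around it. More fibrillar collagen between the muscle cells is the mark of cardiac fibrosis.

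Differences below are log2 differences of RPKM + 1 with the moderated standard error of the fit of all 15 mice, p-values are adjusted by Benjamini and Hochberg over all 10868 tested genes, and values of the 3 mice of a group stand in the order of their mouse numbers. Because 1 is added before the logarithm, the differences of genes of a few RPKM understate the change in level. Across the series a column held an estimated 16.3 to 51.5 M reads (median 27.0 M), and 5 mice had 2 columns, which were averaged. Columns carry 1 of 9 codes of unstated meaning, and the code of the 3 controls is shared by 1 other mouse only, A3278 of the 72 hour group. The 24 hour columns share no code with another group. Over all tested genes the median difference from control was -0.30 after 12 hours, -0.19 after 24 hours, -0.10 after 72 hours and -0.03 after 7 days, and the values of the first 2 times are to be read relative to it.

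Collagen expression was high at 7 days. The levels of all 37 collagen genes summed to 3208, 2440.3 and 3058 RPKM in the 3 mice at 7 days, against 465, 444 and 424 RPKM in the 3 controls. The sums were 607, 384 and 383 RPKM at 12 hours, 313, 239 and 432 RPKM at 24 hours and 358, 630.5 and 327 RPKM at 72 hours. At 24 hours the mean sum was 328 ± 97.3 RPKM, against 444 ± 20.3 RPKM in controls (SD, n = 3 each). Each 7 day mouse stood above all other 12 mice. These 37 genes held 0.853% ± 0.181 of the summed RPKM of the table at 7 days and 0.0986% ± 0.0061 in controls (SD, n = 3 each). Col1a1, Col1a2 and Col3a1 alone accounted for 2080.1, 1362 and 1797 RPKM at 7 days, against 162, 157 and 137 RPKM in controls. In RNA of whole ventricle, more cells of a kind and more RNA per cell cannot be told apart.

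Of the 20 tested collagen genes 17 were higher and 1 was lower at 7 days than in controls, and 2 did not pass the test. Over all tested genes 54.8% passed in this comparison, with 26.7% higher and 28.2% lower. The values of 16 collagen genes lay wholly above the control values, where 32.4% of all tested genes did so, and those of 1 lay wholly below, where 34.5% did so. The median difference was 2.98 over the 8 fibrillar collagens, 0.74 over the 4 basement membrane collagens and 1.47 over the 8 other collagens, beside -0.03 over all tested genes. Col11a1 and Col12a1 met the level needed for testing only through the 7 day mice, and without them 15 of 18 collagen genes were higher. The medians of the fibrillar and of the other collagens include these genes.

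**Figure D1:**
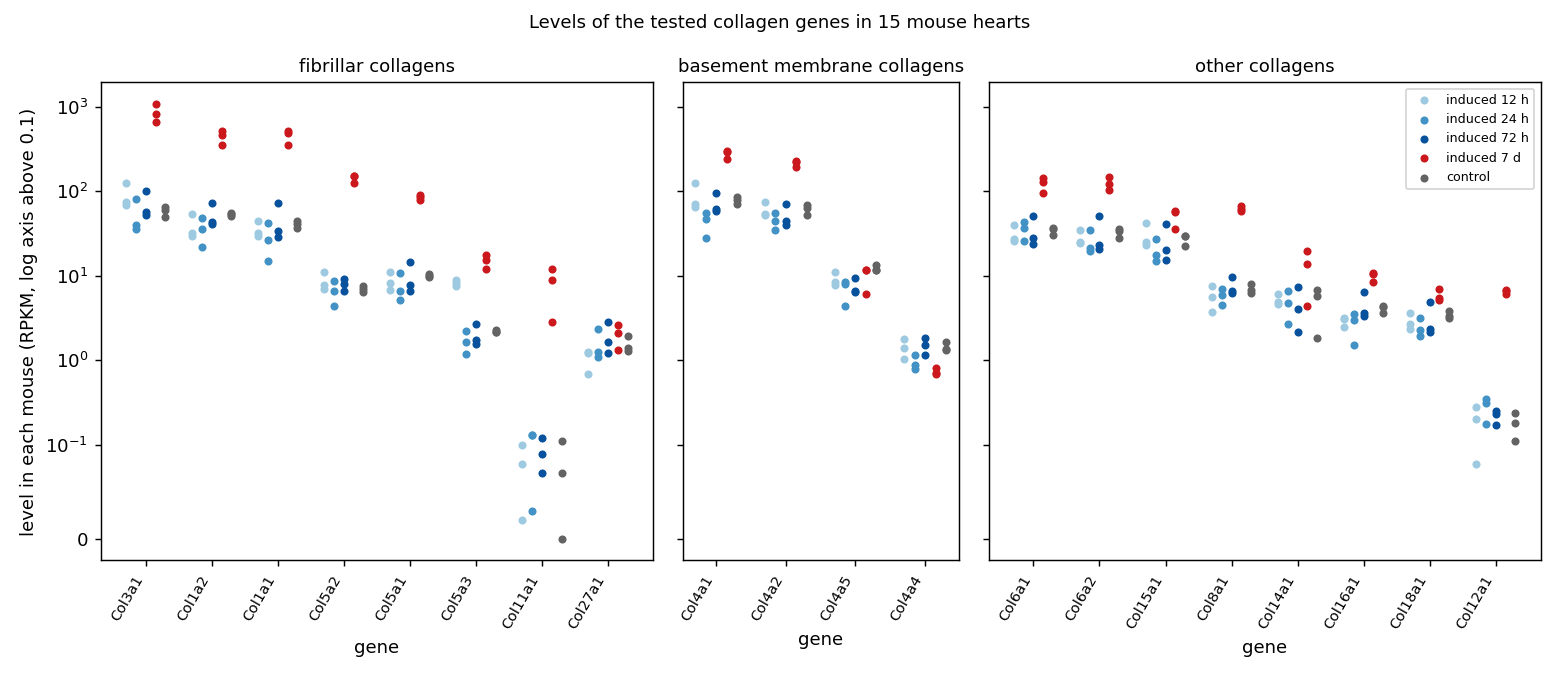
Levels in RPKM of the 20 tested collagen genes, with 1 point per mouse and a log axis above 0.1 RPKM, ordered by mean level within fibrillar, basement membrane and other collagens. Within each gene the columns of points run from 12 hours to 7 days with controls at the right, and the red 7 day points stand clear above the other groups except in Col4a4, Col4a5, Col14a1, Col15a1 and Col27a1.

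At 7 days the genes of the main fibre-forming chains had the highest levels of the collagen genes, whereas in controls Col4a1 and Col4a2 had the higher means (77.9 ± 7.48 and 61.2 ± 8.16 RPKM, SD, n = 3). Col3a1 (chr1:45368383-45406551, mm9, plus strand), the only chain of type III collagen, was at 1079, 653 and 826 RPKM at 7 days, against 64.9, 59.4 and 50 RPKM in controls. It was at 124, 74.6 and 69.4 RPKM at 12 hours, 39.9, 35.8 and 80.4 RPKM at 24 hours and 56.8, 100.3 and 52.7 RPKM at 72 hours. The 7 day difference from control was 3.83 ± 0.31 (adjusted p = 3.2e-08, limma), and the mean level was 14.7 times that of controls. At 12 hours its 3 values also lay above those of controls, as those of 4.6% of all tested genes did, at a difference of 0.57 ± 0.31 that did not pass the test (adjusted p = 0.196).

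Type I collagen joins 2 chains from Col1a1 to 1 chain from Col1a2. Col1a1 (chr11:94797538-94814356, mm9, plus strand) was at 490.0, 358 and 513 RPKM at 7 days, against 44.2, 41.4 and 36.4 RPKM in controls, a difference of 3.44 ± 0.33 (adjusted p = 2.57e-07). It stood at 44.2, 32.5 and 29.4 RPKM at 12 hours, 26.5, 14.9 and 41.7 RPKM at 24 hours and 33.7, 73.3 and 28.7 RPKM at 72 hours, and at each of these times the values overlapped those of controls. Col1a2 (chr6:4454814-4491543, mm9, plus strand) had 511, 351 and 458 RPKM at 7 days, against 53.3, 56 and 50.5 RPKM in controls, and its difference was 3.01 ± 0.28 (adjusted p = 1.63e-07). Its levels were 53.3, 32.4 and 29.4 RPKM at 12 hours, 36.2, 21.9 and 47.8 RPKM at 24 hours and 43.3, 72.6 and 41.5 RPKM at 72 hours. All 3 mice at 24 hours lay below all 3 controls in Col1a2, as in 32.9% of all tested genes. The difference was -0.65 ± 0.28 and missed the threshold (adjusted p = 0.111, limma).

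The windows around the starts of Col1a2 and Col3a1, both of which rose at 7 days, differ in base composition. They run from 250 bases before to 50 bases after the RefSeq start (build GRCm38.p6), and are printed 5′ to 3′ on the gene's own strand. The capitals mark a CCAAT box (CCAAT), a GC box (GGGCGG) or a TATA box (TATAAA) on either strand.
Col1a2, chr6:4505368-4505667, plus strand: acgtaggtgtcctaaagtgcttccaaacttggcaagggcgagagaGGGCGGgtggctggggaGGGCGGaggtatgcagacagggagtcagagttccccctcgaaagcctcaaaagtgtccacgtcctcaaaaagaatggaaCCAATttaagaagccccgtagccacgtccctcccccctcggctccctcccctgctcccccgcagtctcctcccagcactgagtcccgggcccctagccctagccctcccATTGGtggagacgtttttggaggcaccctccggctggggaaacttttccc
Col3a1, chr1:45311288-45311587, plus strand: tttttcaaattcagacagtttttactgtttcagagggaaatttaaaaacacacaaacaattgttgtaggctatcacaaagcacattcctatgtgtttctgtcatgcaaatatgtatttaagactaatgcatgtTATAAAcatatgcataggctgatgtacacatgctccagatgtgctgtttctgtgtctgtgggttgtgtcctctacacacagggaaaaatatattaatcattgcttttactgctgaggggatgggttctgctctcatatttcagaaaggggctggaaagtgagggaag
The Col1a2 window is 61.0% G and C and holds 2 GC boxes and 2 CCAAT boxes. The Col3a1 window is 37.7% G and C and holds a match to TATAAA alone, at -117 from the start. These are matches of letters, and their use as promoter elements was not tested. The motifs do not overlap each other in either window. Among the 30 collagen genes with a RefSeq window, 19 held a GC box, which is 63.3%, where 35.7% of all 32851 windows did. A CCAAT box was in 36.7% of the collagen windows and 37.4% of all windows, and a TATA box in 16.7% and 13.6%. Each collagen gene entered with a single window. The 32851 windows were not limited to a single window per gene or to genes of the expression table, so the sets are unlike.

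The minor chains of the fibres rose as well. Col5a2, a chain of type V collagen, had the largest log2 difference of the 20 genes at 4.18 ± 0.21 (adjusted p = 1.75e-10), with 152, 125 and 152 RPKM at 7 days, against 6.97, 7.51 and 6.35 RPKM in controls. At earlier times it was at 11, 7.04 and 7.78 RPKM (12 hours), 6.58, 4.39 and 8.62 RPKM (24 hours) and 6.7, 9.08 and 7.96 RPKM (72 hours). The mean level of Col5a2 at 7 days was 20.6 times that of controls. This ratio was larger in Col11a1 (132) and Col12a1 (36.7), whose control means were only 0.06 and 0.177 RPKM. Col5a1, its partner chain, was at 84.8, 78.6 and 90.4 RPKM at 7 days, against 10.6, 9.94 and 9.66 RPKM in controls, a difference of 2.95 ± 0.26 (adjusted p = 9.56e-08). Col5a1 stood at 11.1, 6.83 and 8.17 RPKM at 12 hours, 6.66, 5.17 and 10.9 RPKM at 24 hours and 7.76, 14.8 and 6.58 RPKM at 72 hours. Its highest mouse before 7 days was the 72 hour mouse A3278.

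Col11a1, a chain of type XI collagen best known from cartilage, was nearly silent before 7 days. It had 12, 2.86 and 8.85 RPKM at 7 days, against 0.11, 0.07 and 0 RPKM in controls, and 0.02, 0.1 and 0.08 RPKM at 12 hours, 0.13, 0.13 and 0.03 RPKM at 24 hours and 0.07, 0.09 and 0.12 RPKM at 72 hours. The difference was 2.90 ± 0.30 (adjusted p = 4.84e-07), and the 7 day mice differed widely among themselves. Col27a1, a fibrillar chain of cartilage and bone, did not pass the test. Its levels were 2 ± 0.636 RPKM at 7 days and 1.54 ± 0.341 RPKM in controls (SD, n = 3 each), and its difference was 0.23 ± 0.24 (adjusted p = 0.437). A correction for GC content brought Col27a1 past the test, with a difference of 0.71. Of the 3 untested fibrillar genes, Col11a2 had 0.18, 0.42 and 0.305 RPKM at 7 days, against 0.93, 1.01 and 0.98 RPKM in controls, and fell in a fit without a limit on level (-0.60 ± 0.14, adjusted p = 0.00339). The share over all genes is not given for that fit, and in the main fit 28.2% of tested genes were lower. Col2a1, the main cartilage collagen, and Col24a1 had mean levels of 0.032 and 0.044 RPKM over the 15 mice.

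**Figure D2:**
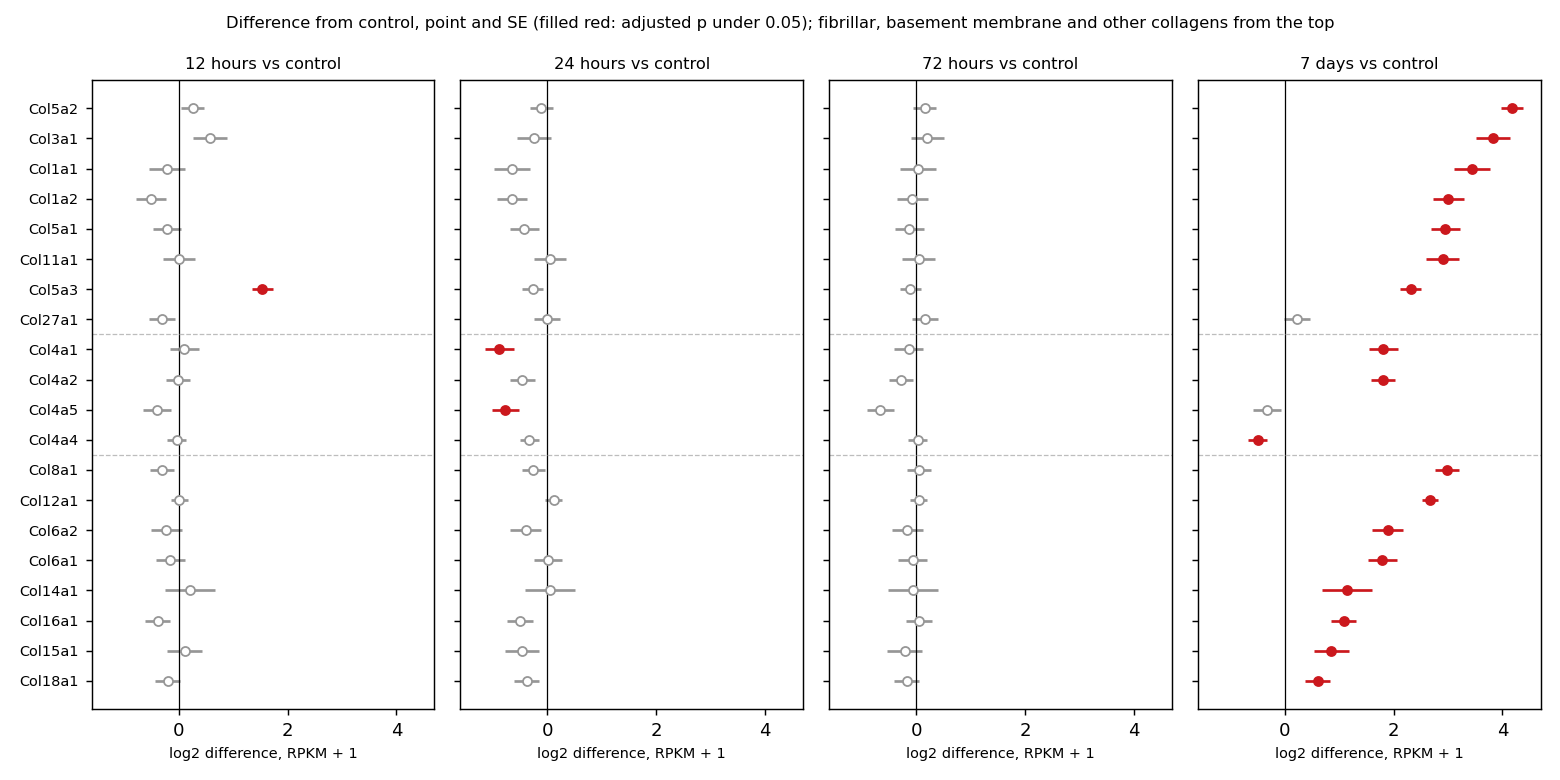
Log2 difference of RPKM + 1 from control, with its SE, for the 20 tested collagen genes at 12 hours, 24 hours, 72 hours and 7 days (3 mice against 3). Filled red points passed the test, which 1 gene did at 12 hours, 2 did at 24 hours, none did at 72 hours and 18 did at 7 days.

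The basement membrane chains divided. Col4a1 (chr8:11198423-11312826, mm9, minus strand) and Col4a2 (chr8:11312805-11449287, mm9, plus strand) encode the chains of the common type IV trimer and lie head to head. Col4a1 was at 241, 300.0 and 289 RPKM at 7 days, against 79, 70 and 84.8 RPKM in controls, a difference of 1.81 ± 0.26 (adjusted p = 2.27e-05). Col4a1 stood at 124, 65.8 and 71.4 RPKM at 12 hours, 55, 28 and 46.4 RPKM at 24 hours and 62.5, 95.5 and 59.2 RPKM at 72 hours, so that the 24 hour mice were the lowest of all groups. Col4a2 was at 196, 223 and 228 RPKM at 7 days, against 63.2, 52.2 and 68.2 RPKM in controls, with a difference of 1.81 ± 0.23 (adjusted p = 4.36e-06). It had 75.6, 54.2 and 53.2 RPKM at 12 hours, 45, 34.4 and 55 RPKM at 24 hours and 44, 71.2 and 40.2 RPKM at 72 hours.

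The starts of these genes are 21 bases apart, and their windows, shown because the pair shares 78 bases of them, are G and C rich (74.0% and 73.7%).
Col4a1, chr8:11312777-11313076, minus strand: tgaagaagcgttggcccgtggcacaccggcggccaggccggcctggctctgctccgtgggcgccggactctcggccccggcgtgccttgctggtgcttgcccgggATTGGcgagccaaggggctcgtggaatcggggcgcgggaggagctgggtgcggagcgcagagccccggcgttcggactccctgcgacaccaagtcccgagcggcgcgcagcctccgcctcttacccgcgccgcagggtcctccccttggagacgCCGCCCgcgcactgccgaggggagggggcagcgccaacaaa
Col4a2, chr8:11312555-11312854, plus strand: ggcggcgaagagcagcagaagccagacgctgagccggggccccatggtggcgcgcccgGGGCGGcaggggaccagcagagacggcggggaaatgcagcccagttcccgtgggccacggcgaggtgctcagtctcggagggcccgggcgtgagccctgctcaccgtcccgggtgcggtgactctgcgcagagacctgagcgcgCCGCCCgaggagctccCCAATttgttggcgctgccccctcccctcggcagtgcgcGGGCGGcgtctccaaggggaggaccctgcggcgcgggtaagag
The first exons overlap on opposite strands in the annotation, and since the sources used here give no strand of the reads, reads from that stretch cannot be assigned to 1 of the genes. The Col4a1 window holds 1 CCAAT box and 1 GC box, and the Col4a2 window holds 1 CCAAT box and 3 GC boxes. The capitals have the meaning given above.

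The chains of the specialised type IV networks, known from kidney, lung and muscle, did not rise. Col4a4 was at 0.7, 0.68 and 0.815 RPKM at 7 days, against 1.34, 1.37 and 1.64 RPKM in controls, and fell by 0.50 ± 0.17 on the log2 scale (adjusted p = 0.0207). It was at 1.39, 1.03 and 1.78 RPKM at 12 hours, 1.16, 0.8 and 0.89 RPKM at 24 hours and 1.17, 1.53 and 1.82 RPKM at 72 hours. At these levels the call was lost with a GC correction, with the column code as a term, and without A3283 or without the control A3280. Col4a3, its head-to-head neighbour at a distance of 72 bases, was untested at 0.24, 0.185 and 0.19 RPKM at 7 days, against 0.61, 0.44 and 0.49 RPKM in controls, and fell in the fit without a limit (-0.33 ± 0.09, adjusted p = 0.0083). For that fit the share over all genes is not given, and 28.2% of tested genes were lower in the main fit. Col4a5, on chromosome X, had 11.9, 6.09 and 11.8 RPKM at 7 days, against 11.7, 13.5 and 11.6 RPKM in controls, and did not pass (-0.33 ± 0.25, adjusted p = 0.287). Its values were 11.1, 7.85 and 8.47 RPKM at 12 hours, 8.54, 4.38 and 8.07 RPKM at 24 hours and 6.49, 9.37 and 6.62 RPKM at 72 hours, and all 9 of these mice lay below the 3 controls. At 24 hours 32.9% of all tested genes lay wholly below the controls, and a share for all 9 mice is not given. Col4a6, just under the limit at a mean of 0.960 RPKM where Col4a4 just met it at 1.21 RPKM, averaged 1.05 ± 0.507 RPKM at 7 days and 1.12 ± 0.0872 RPKM in controls.

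All 8 tested genes of the other collagens were higher at 7 days, among them Col12a1, which met the level needed for testing only through the 7 day mice. Col6a1 and Col6a2 encode chains of the beaded type VI filaments. Col6a3 is not among the 37 collagen genes of the table, so type VI and the collagen sums are covered only in part. Col6a1 was at 128, 95.2 and 145 RPKM at 7 days, against 36.5, 36.2 and 30.1 RPKM in controls (1.80 ± 0.26, adjusted p = 2.28e-05), and Col6a2 was at 123, 102 and 148 RPKM, against 34.2, 35.4 and 28.1 RPKM in controls (1.89 ± 0.28, adjusted p = 3.13e-05). Before 7 days Col6a1 had 39.8, 27.4 and 26 RPKM at 12 hours, 26.1, 36.6 and 42.8 RPKM at 24 hours and 28.3, 51.1 and 24 RPKM at 72 hours. Col6a2 had 34.5, 24.2 and 25.1 RPKM at 12 hours, 21.4, 19.7 and 34.4 RPKM at 24 hours and 23.1, 50.6 and 20.5 RPKM at 72 hours. In both genes the 72 hour mouse A3278 stood well above the other mice of its group.

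Col8a1, a short-chain collagen made in vessel walls and by fibroblasts of the heart, had 61.9, 58.4 and 67 RPKM at 7 days, against 8.1, 6.81 and 6.24 RPKM in controls. The difference was 2.98 ± 0.22 (adjusted p = 1.02e-08), beside 3.01 ± 0.28 for Col1a2 and 3.83 ± 0.31 for Col3a1. Its levels were 7.64, 3.76 and 5.58 RPKM at 12 hours, 6.91, 4.54 and 5.88 RPKM at 24 hours and 6.54, 9.61 and 6.24 RPKM at 72 hours. Its partner Col8a2, below the limit on level, had 1.15, 0.4 and 1.28 RPKM at 7 days, against 0.18, 0.51 and 0.18 RPKM in controls and 0.245, 0.11 and 0.1 RPKM at 72 hours.

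The chains that sit on the surface of fibres rose to different extents. Col12a1 had 6.04, 6.78 and 6.63 RPKM at 7 days, against 0.18, 0.24 and 0.11 RPKM in controls, with 0.2, 0.08 and 0.28 RPKM at 12 hours, 0.31, 0.175 and 0.35 RPKM at 24 hours and 0.23, 0.17 and 0.25 RPKM at 72 hours. Its difference was 2.67 ± 0.15 (adjusted p = 6.96e-10), and as with Col11a1 the gene was near silent at all times but 7 days. Col16a1 was at 8.38, 10.8 and 10.4 RPKM at 7 days, against 3.66, 4.34 and 4.32 RPKM in controls (1.08 ± 0.23, adjusted p = 0.000894), with 3.19, 3.09 and 2.46 RPKM at 12 hours, 3.02, 1.53 and 3.58 RPKM at 24 hours and 3.6, 6.48 and 3.33 RPKM at 72 hours. In Col14a1 the groups overlapped, at 19.9, 4.39 and 13.6 RPKM at 7 days, against 5.82, 6.76 and 1.84 RPKM in controls. Its difference of 1.15 ± 0.46 just passed (adjusted p = 0.0423), and 11 of 25 alternative settings lost the call, with adjusted p up to 0.234.

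The multiplexins, which carry the fragments known as restin and endostatin, changed least among the genes that rose. Col15a1 was at 58.9, 36.1 and 56.9 RPKM at 7 days, against 29.6, 29.5 and 22.4 RPKM in controls (0.85 ± 0.32, adjusted p = 0.0325). It had 42.7, 23.2 and 25.1 RPKM at 12 hours, 17.4, 15 and 27.2 RPKM at 24 hours and 20.1, 40.9 and 15.2 RPKM at 72 hours. Col18a1 was at 5.45, 5.15 and 6.93 RPKM at 7 days, against 3.19, 3.37 and 3.83 RPKM in controls (0.61 ± 0.23, adjusted p = 0.0324). Its earlier values were 3.66, 2.72 and 2.36 RPKM at 12 hours, 2.28, 1.94 and 3.19 RPKM at 24 hours and 2.13, 4.89 and 2.33 RPKM at 72 hours. Col15a1 lost its call in 5 of 25 settings and Col18a1 in 4 of 24, among them the fits without the 7 day mouse A3345.

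The remaining 12 of the 20 other collagens had mean levels from 0.007 RPKM for Col19a1 to 0.483 RPKM for Col23a1 over the 15 mice, and none was tested with the limit on level. In the fit without it Col8a2 (0.57 ± 0.15, adjusted p = 0.00838) and Col28a1 (0.47 ± 0.08, adjusted p = 0.000556) were higher at 7 days. Col28a1 had 0.39, 0.495 and 0.745 RPKM at 7 days, against 0.07, 0.15 and 0.1 RPKM in controls. Col25a1, a membrane-bound collagen, was lower at 12 hours (-0.35 ± 0.08, adjusted p = 0.0351) and at 7 days (-0.25 ± 0.08, adjusted p = 0.0271). It was listed at 0 in all 3 mice at 12 hours and had 0.19, 0 and 0.035 RPKM at 7 days, against 0.2, 0.38 and 0.24 RPKM in controls. Shares over all genes are not given for the fit without the limit, so these calls are not set apart from the rest of the table. In the main fit 26.7% of tested genes were higher and 28.2% lower at 7 days, and 12.7% were lower at 12 hours.

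Against 72 hours of induction the 7 day mice showed the same count, with 17 collagen genes higher and 1 lower, where 44.9% of all tested genes passed, 22.6% higher and 22.3% lower. The 17 include Col11a1 and Col12a1, which met the level needed for testing only through the 7 day mice. This comparison has the transgene in both groups and by its labels differs in time alone. The Celf1 level differed as well, by -2.37 ± 0.20 (adjusted p = 7.36e-08, limma). The differences were 3.62 ± 0.31 for Col3a1, 3.4 ± 0.33 for Col1a1, 3.07 ± 0.28 for Col1a2 and 4.02 ± 0.21 for Col5a2. Col4a1 differed by 1.95 ± 0.26, Col6a1 by 1.86 ± 0.26 and Col4a4 by -0.53 ± 0.17 (adjusted p = 0.019, limma). Mice of both times share column codes, and within 3 codes the median difference of the 20 genes was 2.33, 2.33 and 2.48, with 17, 19 and 19 of 20 genes higher at 7 days. Each code held 1 or 2 columns of each time. The mice A3264, A3281 and A3283 each had columns in 2 of these codes, so the 3 medians are not independent. No column code is shared by 7 day and control mice, so a within-code value of the 7 day comparison with controls cannot be had. With the code as a term, linked to controls through A3278 alone, 16 collagen genes were higher and none was lower. Shares over all tested genes are not given for this fit or within codes, and those of the main fit do not apply.

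**Figure D3:**
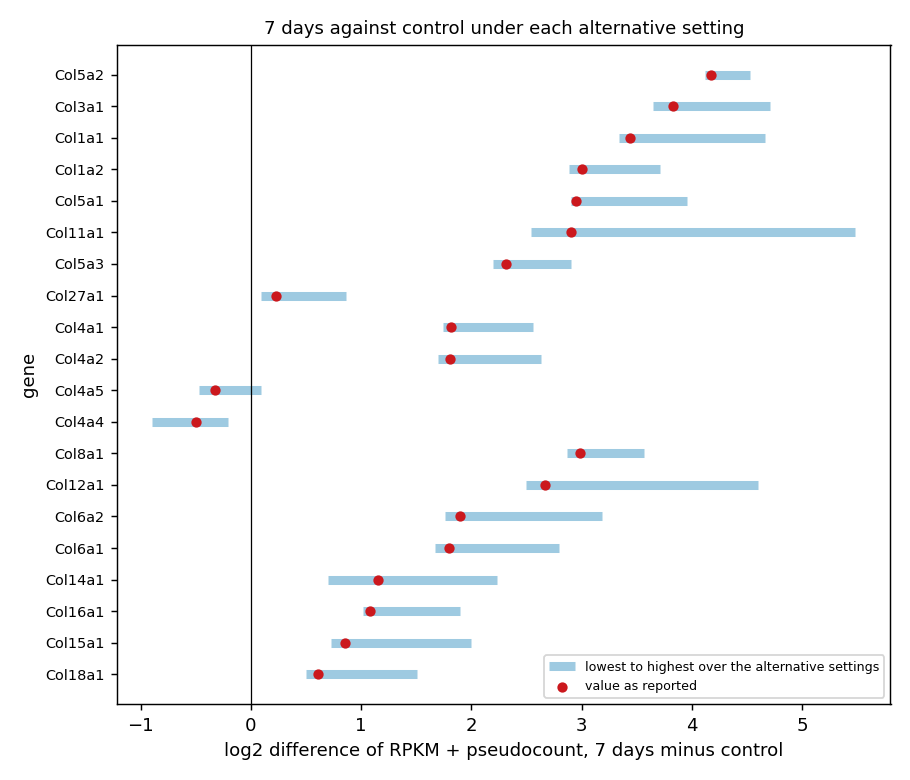
Log2 difference between 7 days and control for the 20 tested collagen genes, with the value as reported as a red point and the lowest to highest value over the alternative settings as a blue bar. The bars of the fibrillar, type VI and common type IV genes lie clear of 0, that of Col27a1 runs from 0.09 to 0.87, and that of Col4a5 spans 0 with -0.47 to 0.09.

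Before 7 days few collagen genes passed a test. At 12 hours 1 of the 20 tested genes was higher and none was lower, where 13.2% of all tested genes passed, 0.524% higher and 12.7% lower. That gene was Col5a3 (chr9:20574494-20619511, mm9, minus strand), the third chain of type V collagen, found in muscle and other soft tissues. It was at 8.93, 8.3 and 7.64 RPKM at 12 hours, against 2.17, 2.26 and 2.16 RPKM in controls, a difference of 1.54 ± 0.19 (adjusted p = 0.000378). All 3 mice stood above all controls, as in 4.6% of all tested genes, and the mean level was 3.77 times that of controls. The median difference of the 8 fibrillar genes was -0.10 at this time.

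Col5a3 was again low at 24 hours, at 1.65, 1.19 and 2.25 RPKM, and at 72 hours, at 1.58, 2.67 and 1.75 RPKM, and it was high at 7 days, at 12, 17.8 and 15.5 RPKM. Of the 20 genes it alone passed the test in both the 12 hour and the 7 day comparison with controls (2.32 ± 0.19 at 7 days, adjusted p = 4.77e-08). Between 24 and 12 hours its difference was -1.80 ± 0.19 (adjusted p = 9.26e-05), where 3.92% of all tested genes passed, 3.35% higher and 0.57% lower. Its rise at 12 hours was kept in all 25 alternative settings, with differences from 1.49 to 2.23 and adjusted p of at most 0.0125. The other type V chains showed no such rise, with -0.21 ± 0.26 for Col5a1 and 0.26 ± 0.21 for Col5a2 at 12 hours (adjusted p = 0.574 and 0.391). The window around its start, given because its time course stands apart, holds 1 CCAAT box and 3 GC boxes in capitals.
Col5a3, chr9:20815018-20815317, minus strand: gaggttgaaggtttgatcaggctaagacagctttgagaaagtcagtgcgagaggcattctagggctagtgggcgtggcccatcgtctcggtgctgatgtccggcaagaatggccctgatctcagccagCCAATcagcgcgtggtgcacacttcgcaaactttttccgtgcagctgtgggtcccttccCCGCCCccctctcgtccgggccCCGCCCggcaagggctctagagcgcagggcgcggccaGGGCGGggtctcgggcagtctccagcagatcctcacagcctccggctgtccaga

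At 24 hours 2 genes were lower than in controls, Col4a1 and Col4a5, where 16.0% of all tested genes passed, 5.38% higher and 10.6% lower. Col4a1 differed by -0.89 ± 0.26 (adjusted p = 0.0341) and Col4a5 by -0.77 ± 0.25 (adjusted p = 0.048). All 3 mice were below all 3 controls in both genes, as in 32.9% of all tested genes, and the median difference was -0.61 over the 4 basement membrane genes and -0.35 over the 20 collagen genes, beside -0.19 over all tested genes. Col4a2 was at -0.46 ± 0.23 and did not pass (adjusted p = 0.153). Col4a1 was also lower at 24 than at 12 hours (-0.99 ± 0.26, adjusted p = 0.0456). These calls were near the threshold: Col4a1 lost the one against controls in 6 of 24 settings, among them the fit without the lowest 24 hour mouse A3262, and Col4a5 lost its call in 14 of 24.

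At 72 hours, the time matched with controls, no tested collagen gene passed in limma, where 11.6% of all tested genes did, 6.39% higher and 5.22% lower. At an unadjusted p under 0.05 the count was 1, which was Col4a5 (-0.66 ± 0.25, adjusted p = 0.1). The 20 differences ran from -0.66 to 0.21 with a median of -0.06, and no collagen gene passed between 72 and 24 hours either in limma, where 10.2% of all tested genes did, 7.67% higher and 2.57% lower, and where the count at an unadjusted p under 0.05 was 2. Col7a1, the anchoring fibril chain best known from skin, and Col9a3, a chain of cartilage fibres, were below the limit on level, but both were higher at 72 hours in the fit without it. No other collagen gene below the limit passed at this time. The share over all genes in that fit is not given, so these calls are not set apart from the 11.6% that passed in the main fit. Col7a1 was at 0.57, 0.83 and 0.505 RPKM at 72 hours, against 0.1, 0.15 and 0.1 RPKM in controls (0.55 ± 0.07, adjusted p = 0.000863). It had 0.04, 0.15 and 0.03 RPKM at 12 hours, 0.08, 0.075 and 0.1 RPKM at 24 hours and 0.15, 0.215 and 0.335 RPKM at 7 days. Col9a3 was at 0.515, 1.13 and 0.73 RPKM at 72 hours, against 0.08, 0.22 and 0.1 RPKM in controls (0.65 ± 0.10, adjusted p = 0.00312). It stood at 0, 0.07 and 0.17 RPKM at 12 hours, 0.27, 0.155 and 0.11 RPKM at 24 hours and 0.03, 0.125 and 0.055 RPKM at 7 days, so that in both genes the 72 hour mice were the highest of all groups. An exon of Col9a3 overlaps Tcfl5 on the opposite strand, so its reads may belong to either gene.

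**Figure D4:**
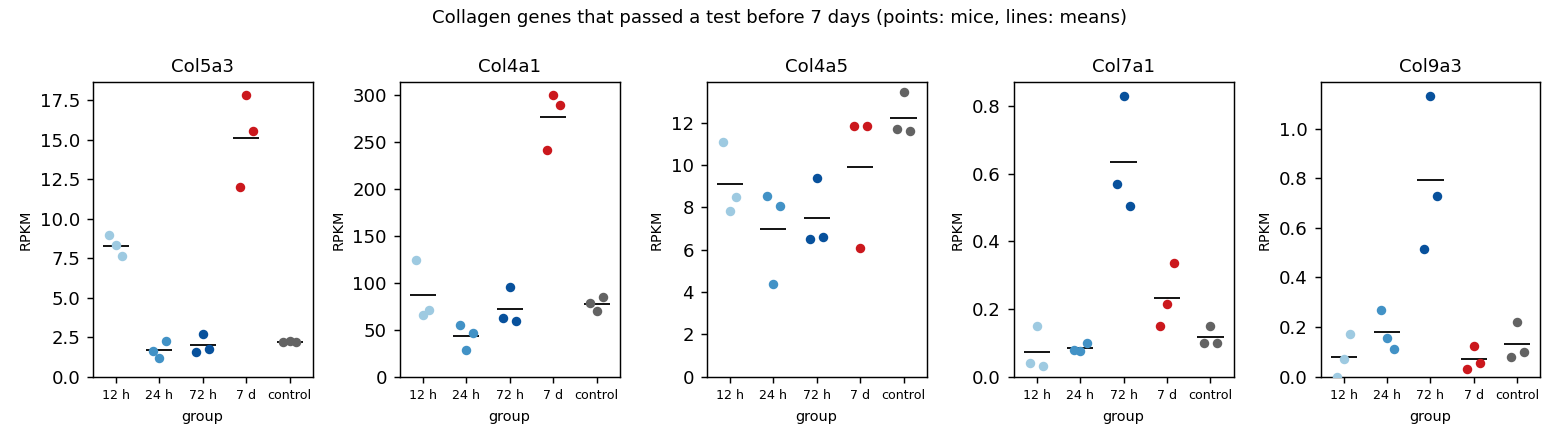
Levels in RPKM of Col5a3, Col4a1, Col4a5, Col7a1 and Col9a3 in each mouse, with a line at the group mean and the vertical axis from 0. Col5a3 is high at 12 hours and 7 days, Col4a1 is lowest at 24 hours, and Col7a1 and Col9a3, both below the limit on level, are highest at 72 hours.

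The 72 hour mouse A3278, whose column code is that of the controls, had higher collagen levels in RPKM than the other mice of its group. Against the 3 controls in that code it was higher in 18 of 20 tested collagen genes, with a median log2 difference of 0.42 and a range of -0.35 to 0.84. Over tested genes above 0 in every mouse, its median log2 ratio to the mean of all mice was 0.26. That ratio was -0.05 in A3264, -0.04 in A3281 and 0.11, 0.17 and 0.16 in the 3 controls. The collagen values of A3278 are to be read relative to this shift, and a count over all tested genes is not given. The collagen sum of A3278, 630.5 RPKM, compares with 358 and 327 RPKM in the other 72 hour mice. Without A3278 Col4a5 passed the test at 72 hours. Repeat columns of 1 mouse differed too: those of the 7 day mouse A3283 differed by a median of 1.5 times over the 20 genes, with the first column higher in all 20, and those of the other 4 mice by 1.13 to 1.43 times.

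The ratios of RPKM between 5 pairs of collagen genes were compared by an exact permutation test, which none could pass with 3 mice against 3. The Col5a2 to Col5a1 ratio was 1.79, 1.59 and 1.68 at 7 days, against 0.66, 0.76 and 0.66 in controls, and no values overlapped. The Col1a1 to Col1a2 ratio was 1.03 ± 0.08 at 7 days and 0.76 ± 0.06 in controls, and the Col3a1 to Col1a1 ratio was 1.88 ± 0.30 at 7 days and 1.43 ± 0.05 in controls (SD, n = 3 each). In each of these 3 ratios all 7 day values were above all control values, and the two-sided exact permutation test gave p = 0.10, the smallest that 3 mice against 3 allow, or 0.167 after adjustment over 5 ratios. The Col4a1 to Col4a2 ratio was 1.28 ± 0.06 at 7 days and 1.28 ± 0.05 in controls (exact permutation p = 0.90), and that of Col6a1 to Col6a2 was 0.98 ± 0.06 at 7 days and 1.05 ± 0.03 in controls (exact permutation p = 0.20). With a GC correction the log2 difference of the Col3a1 to Col1a1 ratio was 0.17 in place of 0.38. With 3 mice against 3 this permutation test cannot reach a p under 0.05, so it does not decide whether a ratio changed.

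**Figure D5:**
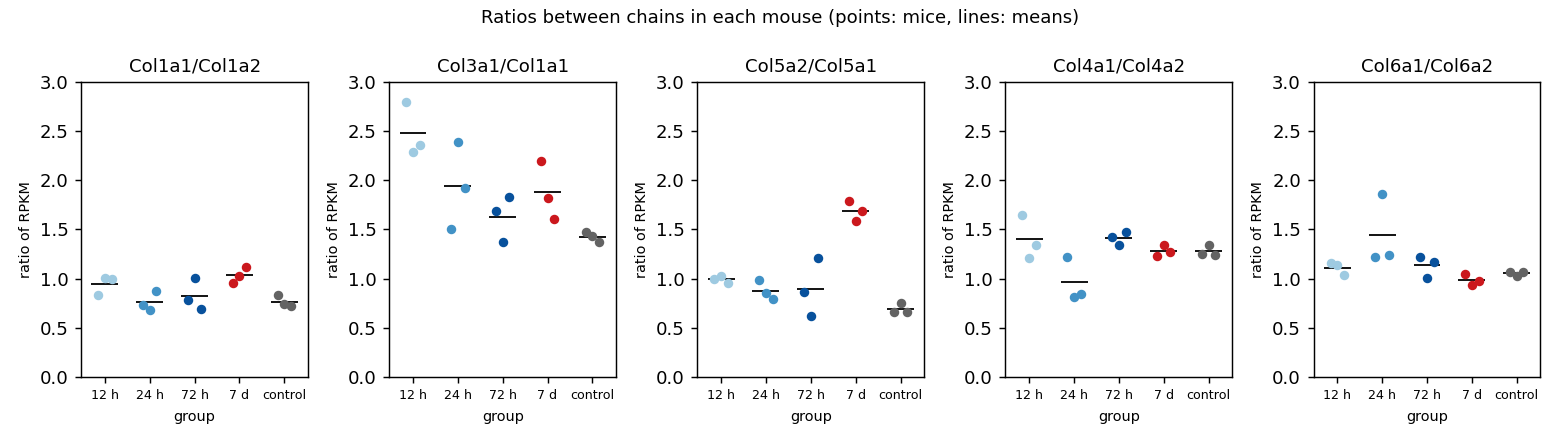
Ratio of RPKM between 2 collagen genes in each mouse, for 5 pairs, with a line at the group mean and the vertical axis from 0 to 3. The Col5a2 to Col5a1 ratio is 1.59 to 1.79 at 7 days and 0.66 to 0.76 in controls, and the Col4a1 to Col4a2 ratio has means of 1.28 in both groups.

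The collagen genes are richer in G and C than most genes, with a median of 56.3% over the 20 tested genes beside 50.6% over 10823 tested genes with a value. After a GC correction 18 collagen genes were higher at 7 days and none was lower, and the share over all tested genes under this correction is not given. Many share a match to the miR-29 family in the 3′ UTR, a microRNA family known in mouse and human heart as a repressor of collagens. The mature sequences from RefSeq (GRCm38.p6) share 1 seed, bases 2 to 8, in capitals.
miR-29a-3p: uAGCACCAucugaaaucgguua
miR-29b-3p: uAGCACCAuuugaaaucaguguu
miR-29c-3p: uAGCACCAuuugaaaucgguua
The seed match TGGTGCT was searched on the transcript strand alone and was found in 15 of the 20 tested collagen genes, 75.0%, where 14.65% of 10712 tested genes with an annotated 3′ UTR held it. The median 3′ UTR length was 1244 bases in the collagen genes and 1066 bases over all of these genes. Matches with 10 bases before and 5 bases after follow for genes that rose at 7 days (mm9), with the match in capitals.
Col1a1, chr11:94813842-94813863, plus strand: aaggaatttcTGGTGCTataga
Col3a1, chr1:45405817-45405838, plus strand: aatgtctcaaTGGTGCTataat
Col4a1, chr8:11199757-11199778, minus strand: cgtcacaacaTGGTGCTactcc
Col5a2, chr1:45431806-45431827, minus strand: cttttaatgaTGGTGCTaaaat
Among the 17 genes higher at 7 days 12 held a match, and so did all 3 tested genes that were not higher, Col4a4, Col4a5 and Col27a1. MicroRNA levels were not measured here.

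The genes whose levels were most like those of 3 collagen genes over the 15 mice were found by Pearson's r of log2(RPKM + 1), as a description over mice that share groups and column codes. For Col1a1 they were Col5a1 (r = 0.994), Col1a2 (0.993) and Grn (0.987). For Col4a1 they were Emp3 (0.976), Tram1 (0.974) and Col4a2 (0.965). For Col5a3 they were 9030425E11Rik (0.957), Mmp14 (0.918) and Wsb1 (0.913), and Mmp14 encodes a membrane-bound protease that cuts fibrillar collagen. The mean level of Mmp14 was 9.50 RPKM at 12 hours, 5.06 RPKM at 24 hours, 5.31 RPKM at 72 hours and 39.1 RPKM at 7 days, against 5.11 RPKM in controls.

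Genes that modify, cross-link and bind collagen were also measured at 7 days, when 54.8% of all tested genes passed, 26.7% higher and 28.2% lower. Of 27 tested genes of collagen maturation 16 were higher and 3 lower than in controls, with a median difference of 0.87. Lox, which cross-links collagen, was at 92.3 ± 22.8 RPKM at 7 days and 0.457 ± 0.2 RPKM in controls (5.98 ± 0.22). Loxl3 (3.06 ± 0.22) and Loxl4 (1.95 ± 0.17), of the same family, rose too, whereas Serpinh1, the collagen chaperone, was at -0.41 ± 0.31 (adjusted p = 0.282) and did not pass. Of 14 genes that bind collagen or help fibres form 9 were higher and 2 lower, with a median of 0.86. Fn1, or fibronectin, was at 98.6 ± 7.87 RPKM at 7 days and 10.3 ± 1.67 RPKM in controls (3.15 ± 0.23), and Thbs1 differed by 3.42 ± 0.26 and Bgn by 2.19 ± 0.25. Of 6 tested collagen receptors 3 were higher, Itgb1 (1.59 ± 0.18), Itga11 (1.29 ± 0.20) and Mrc2 (1.18 ± 0.23), and none was lower, a share called near that over all tested genes. Of 15 TGF-beta and profibrotic genes 11 were higher and 1 was lower, with a median of 1.54, led by Spp1 (6.30 ± 0.27), Postn (4.72 ± 0.29) and Tnc (4.84 ± 0.31).

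At 12 hours, where 12.7% of all tested genes were lower, 3 of the 27 maturation genes were, led by Crtap (-0.78 ± 0.23). In the other lists Tnxb (-0.97 ± 0.20), Mrc2 (-0.73 ± 0.23) and Smad7 (-1.10 ± 0.23) were lower, and no gene of the 4 lists was higher; with the column code as a term Crtap and Mrc2 turned positive. At 24 hours, where 5.38% of all tested genes were higher and 10.6% lower, 2 maturation genes were lower, Glt25d2 (-0.66 ± 0.19) and Crtap (-0.74 ± 0.23). Of the binding genes Aspn was higher (1.204 ± 0.385) and Bgn lower (-0.85 ± 0.25), and of the profibrotic genes Tgfbr1 was higher (1.28 ± 0.26) and Tgfb1 (-0.73 ± 0.23) and Ctgf (-1.12 ± 0.36) were lower. At 72 hours, where 11.6% of all tested genes passed, Thbs1 alone of these 4 lists passed, at 2.06 ± 0.26 (adjusted p = 8.26e-05, limma), a time at which no tested collagen gene did.

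Markers of cell types changed in different directions at 7 days, and their part in the collagen result was not tested. Their counts stand beside the 26.7% of all tested genes that were higher and the 28.2% that were lower. Of 10 cardiomyocyte markers 9 were lower at 7 days, with a median of -2.75 and sums of 12078 to 14799 RPKM at 7 days, against 55536 to 57912 RPKM in controls; under quantile normalization Actc1 and Tnnt2 turned higher. All 8 macrophage markers in the table were higher, with a median of 2.39 and sums of 385 to 568 RPKM at 7 days, against 66.2 to 85.0 RPKM in controls. Of 10 fibroblast markers 5 were higher and 1 was lower, with a median of 0.39 and sums of 1466 to 1849 RPKM at 7 days, against 1228 to 1390 RPKM in controls. Mfap5 (3.32 ± 0.29) and Pdgfra (1.79 ± 0.20) rose and Gsn fell (-1.43 ± 0.23), while the fibroblast transcription factor Tcf21 was at 0.05 ± 0.24 and did not pass. Of 10 pericyte and smooth muscle markers 5 were higher and 3 lower, with sums of 298 to 387 RPKM at 7 days, against 286 to 364 RPKM in controls. Of 9 endothelial markers none was higher and 5 were lower, with sums of 238 to 316 RPKM at 7 days, against 368 to 386 RPKM in controls. Markers of cartilage, bone and epithelium summed to 4.14 to 6.51 RPKM at 7 days, against 2.05 to 3.86 RPKM in controls, and only Sox9 and Krt18 of 8 in the table were tested.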

How the data were processed

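The authors deposited 1 table of RPKM values, rounded to 2 decimals, for 16042 genes in 20 columns of 15 mice. TopHat, Bowtie and the mm9 genome were used, per the submitters' processing notes; program versions, the read counter and strandedness are not given in the sources used. Groups and mouse numbers came from the labels, and the 2 columns of 5 mice were averaged. RPKM are no counts, so depth was estimated from the smallest steps in 90 olfactory receptor genes. The step of a single read is smaller in longer genes, where rounding to 2 decimals blurs it more.

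Values were transformed to log2(RPKM + 1), a pseudocount of 1. The 10868 genes whose mean RPKM reached 1 entered 1 limma fit (version 3.58.1, R 4.3.3, eBayes with trend, 10 residual and 7.12 prior degrees of freedom) of 5 groups, with Benjamini-Hochberg adjustment within each of 7 comparisons and a threshold of 0.05. The fit was tested on simulated data. Nothing in the labels says whether mice shared a litter. Alternatives were scaling by median ratios or quantiles, filters on the mean of 0 or 5 RPKM, a pseudocount of 0.1, fits of only the compared groups, a GC correction (lowess, span 0.3), first columns only, a term for the column code (16 columns, mouse correlation 0.283, without 24 hours) and leaving out each mouse. A filter on the 12 mice other than those at 7 days was added after seeing the data. The collagen genes and all lists were chosen with earlier results of these data known. Values in every mouse are given for collagen genes that passed a comparison without overlap and for the 10 of highest mean, with or without the limit on level, and Col14a1 was added after its values were seen. Of other lists up to 3 genes of smallest p are named, and Serpinh1 and Tcf21 were added after their values were seen. The 10 lists hold 138 genes, of which 119 were in the table under the symbols used. Gene positions and 3′ UTRs are from GENCODE vM1 (mm9), promoter windows and microRNAs from RefSeq (GRCm38.p6).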

Additional observations from a re-analysis of the deposited data

Results flagged for a closer look

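Collagen genes differed between induced groups of different duration, tested as the difference itself. Between 24 and 12 hours 2 tested collagen genes passed, Col5a3 and Col4a1, both lower at 24 hours, where 3.92% of all tested genes passed. Between 7 days and 72 hours 18 passed, of which 17 were higher at 7 days and 1, Col4a4, was lower, where 44.9% of all tested genes passed. Col11a1 and Col12a1, among the 17, met the level needed for testing only through the 7 day mice. Groups of 3 mice are too small for a test of single outlying mice.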

How the results depend on the processing

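No collagen gene that passed a test changed direction in any setting tried. Of the 18 calls at 7 days against controls 14 were kept in every setting run for them, as were 14 of the 18 between 7 days and 72 hours and the 12 hour call of Col5a3. Leaving out each mouse gave 15 to 18 calls at 7 days against controls, 15 to 18 between 7 days and 72 hours, 1 to 1 at 12 hours, 0 to 3 at 24 hours, 0 to 1 at 72 hours, 1 to 2 between 24 and 12 hours and 0 to 1 between 72 and 24 hours. The lower 7 day counts came without A3345 (15), without the control A3280 (15) and, between 7 days and 72 hours, without A3281 (15). The 24 hour count of 2 became 0 without A3262 and without each single control, and 3 without A3277. Without a filter on level the counts were 2 at 12 hours, 0 at 24 hours, 2 at 72 hours, 1 between 24 and 12 hours and 2 between 72 and 24 hours, over 37 collagen genes. At 24 hours a pseudocount of 0.1, median-of-ratios scaling and quantile normalization each left 1 call and a GC correction left 0. The compared groups alone gave 1 at 72 hours and 1 between 24 and 12 hours, the first columns gave 1 between 24 and 12 hours, and quantile normalization gave 1 between 72 and 24 hours. Shares over all tested genes are given for the main fit alone, so these counts have none beside them. Genes of other lists reversed: at 12 hours Leprel2 (0.0624), Mrc2 (0.0555) and Crtap (0.124) with the column code as a term and Tie1 (0.0203) with a GC correction, and under quantile normalization Actc1 (0.68) and Tnnt2 (0.55) at 7 days. The cause was not tested. The column code could not be fitted for 24 hours, whose codes occur in no other group. No paired analysis was possible because mouse numbers differ between groups. Depth limits what can be said of the 17 untested collagen genes, whose mean levels are under 1 RPKM.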
